A study of Homo sapiens with 6 samples.

Results

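The genes described here encode the subunits of the respiratory chain and ATP synthase, complexes I to V of the inner mitochondrial membrane. They were chosen by name: protein-coding genes whose symbols begin with NDUFA, NDUFB, NDUFC, NDUFS or NDUFV and a digit, with UQCR, with COX4 to COX8, with ATP5F, ATP5M or ATP5P or with MT-, together with SDHA, SDHB, SDHC and SDHD. The rule gave 99 of the 60612 genes in the deposited tables, 86 in the nucleus and all 13 protein-coding genes of the mitochondrial chromosome, after 2 readthrough names (ATP5MF-PTCD1 and NDUFC2-KCTD14) were left out. Complex I had 45 members, complex II 4, complex III 10, complex IV 20 and complex V 20. The rule uses names and no measured value, although it was written with earlier results of these data known.

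RNA was sequenced from 3 libraries of HSC-3 cells overexpressing IRF9 and 3 control libraries; HSC-3 is an established line from a human tongue cancer of the squamous kind. IRF9 binds DNA within ISGF3, the complex it forms with STAT proteins after type I interferon. The titles call the controls "kongbai", the design text calls the comparison cells wild type, and the sources used here do not give an empty vector for them, the promoter or vector that drove IRF9, or the number of clones. The replicates are not stated to be separate cultures, so a p-value here reflects library spread that may be technical. In bulk RNA a change in the number of cells of a kind cannot be told apart from a change in RNA per cell.

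Complex I takes electrons from NADH and complex II takes them from succinate. Complex III passes them to cytochrome c and complex IV to oxygen, while complexes I, III and IV pump protons that drive complex V, the ATP synthase. The subunits of complex II are all nuclear, and each of the other complexes joins nuclear-encoded subunits to a catalytic or membrane core made from the mitochondrial genome, whose genes are transcribed as long precursors and cut into separate RNAs.

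The libraries held 61645349 to 85156099 counts. IRF9 itself had 435, 423 and 120 CPM (TMM-scaled counts relative to library size) in the overexpressing libraries and 27.6, 25.1 and 44.6 CPM in the controls. The third overexpressing library was the lowest of its group for IRF9. AL136295.5, which overlaps IRF9 on the same strand, was highest there, with 112, 116 and 421 CPM against 95.1, 91.9 and 74.5 CPM. The lower IRF9 value of that library therefore cannot be read as weaker overexpression. How reads were shared between the 2 genes was not tested. All 7 squamous epithelial markers were above 1 CPM in these cells. Their summed level was 9540 to 9968 CPM in the overexpressing libraries and 16832 to 17378 CPM in the controls. Fibroblast markers summed to 47.4 to 51.7 against 75.7 to 80.3 CPM with THY1 at 0, leukocyte markers to 91.5 to 99.0 against 100.8 to 101.9 CPM, and endothelial markers to 1.53 to 2.96 against 0.824 to 1.63 CPM with KDR at 0. A mean above 1 CPM in at least 1 group was reached by 4 of 6 fibroblast, 2 of 5 leukocyte and 1 of 4 endothelial markers. The part of these marker differences in the results was not tested.

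Promoter sequences show what the nuclear genes share that the naming rule did not use. NRF1 and GABP, an ETS family factor, are known activators of respiratory chain genes. In the RefSeq promoter table (GRCh38.p14), 66 of the 86 nuclear genes had an entry, a window of 250 bases before to 50 after the start. The first listed start was used, and motifs were searched as letters on both strands. The NRF1 motif GCGCANGCG was found in 21 of these 66 (31.8%) and in 8.05% of all 27305 promoters. With a further C at its end, the form searched first, it was found in 16 (24.2%) against 6.28%. The ETS motif CCGGAAG was found in 19 (28.8%) against 10.7%, and the YY1 motif AAGATGGCG in 8 (12.1%) against 1.85%. The interferon response motif GAAANNGAA was found in 5 (7.58%) against 8.29%, and with a further A at its end, again the form searched first, in 0 of 66 against 3.65%. The hypoxia response motif TACGTG was found in 2 (3.03%, COX5A and NDUFA1) against 3.33%. A match is a description of letters and not a binding site. The 250 bases before the start are shown for 4 genes, SDHB and UQCRFS1 from those that rose and ATP5PF and ATP5PO from those that fell. All 4 had a match to the NRF1 or ETS motif, so they do not stand for all changed genes. COX6B2, COX7A2L and NDUFV1, which rose, had neither motif. NDUFA2, NDUFB2, NDUFB3, NDUFB11 and NDUFV3, which fell, had neither motif as well. Capitals mark matches to the NRF1 or ETS motif on either strand.
SDHB, chr1:17054033-17054282, minus strand: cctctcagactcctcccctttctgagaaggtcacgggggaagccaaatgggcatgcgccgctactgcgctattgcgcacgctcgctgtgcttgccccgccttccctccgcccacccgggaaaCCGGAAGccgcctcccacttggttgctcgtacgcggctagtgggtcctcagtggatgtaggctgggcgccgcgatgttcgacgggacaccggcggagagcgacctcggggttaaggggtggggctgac
UQCRFS1, chr19:29213152-29213401, minus strand: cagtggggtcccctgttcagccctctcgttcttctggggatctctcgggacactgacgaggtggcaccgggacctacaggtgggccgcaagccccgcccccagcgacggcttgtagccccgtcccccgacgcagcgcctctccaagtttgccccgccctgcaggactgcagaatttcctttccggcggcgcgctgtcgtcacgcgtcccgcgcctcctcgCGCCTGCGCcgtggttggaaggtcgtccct
ATP5PF, chr21:25735055-25735304, minus strand: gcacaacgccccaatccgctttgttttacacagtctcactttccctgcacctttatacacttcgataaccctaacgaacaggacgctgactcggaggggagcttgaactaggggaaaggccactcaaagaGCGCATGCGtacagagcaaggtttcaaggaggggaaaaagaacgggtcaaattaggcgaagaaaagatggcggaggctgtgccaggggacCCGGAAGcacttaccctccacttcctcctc
ATP5PO, chr21:33915805-33916054, minus strand: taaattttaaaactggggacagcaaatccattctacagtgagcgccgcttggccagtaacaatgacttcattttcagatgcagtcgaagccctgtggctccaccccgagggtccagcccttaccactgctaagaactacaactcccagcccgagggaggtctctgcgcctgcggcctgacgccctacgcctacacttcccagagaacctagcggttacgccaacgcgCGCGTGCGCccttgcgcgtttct
In their whole windows SDHB and ATP5PF each had 1 ETS and 1 YY1 match, and UQCRFS1, ATP5PF and ATP5PO each had 1 NRF1 match. ATP5PF and ATP5PO also had 1 match each to the shorter interferon response motif. Among the genes with a promoter entry, the NRF1 motif was in 1 of 5 that rose, 3 of 8 that fell and 16 of 50 that did not pass the test (1, 1 and 13 with the further C), and the ETS motif in 1, 1 and 17.

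In control cells the respiratory chain was read mostly from the mitochondrial genome. Per unit of transcript length (deposited values taken as FPKM), the 13 mitochondrial mRNAs had a median control level of 4739.9 FPKM and the 80 tested nuclear genes one of 61.5 FPKM. The order of levels began with MT-CO2 at 8741 ± 512 FPKM (SD, n = 3) and MT-ATP8 at 7173 ± 623 FPKM. MT-ND4 at 6885 ± 235, MT-ATP6 at 6564 ± 233, MT-CO1 at 6327 ± 110 and MT-CO3 at 6003 ± 259 FPKM followed. From MT-ATP8 to MT-CO3 each lay within the summed SDs of the next, and MT-CO2 lay above MT-ATP8 by more. MT-ND4L (4739.9 ± 87.6 FPKM) and MT-CYB (3167 ± 95.0 FPKM) stood apart from both neighbours by more than the summed SDs. MT-ND2, MT-ND3, MT-ND5 and MT-ND1 lay at 1801, 1423, 1227 and 1052 FPKM, where MT-ND3 and MT-ND5 lay within their summed SDs, and MT-ND6, the only mRNA of the other strand, was lowest at 396 ± 49.2 FPKM. Among nuclear genes the highest was ATP5F1B, the catalytic beta subunit of ATP synthase, at 346.7 ± 1.14 FPKM. The highest of the other complexes were COX8A at 339 ± 11.9, UQCRH at 164, NDUFV2 at 134 ± 5.15 and SDHB at 77.3 ± 3.47 FPKM.

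**Figure D1:**
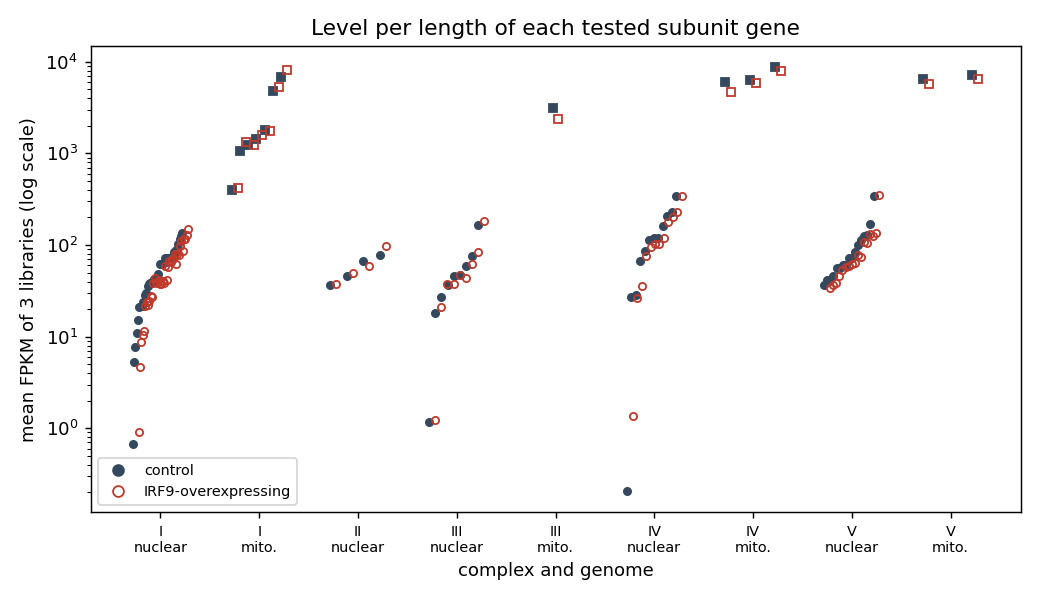
Mean level per length of each tested gene (FPKM, log axis) by complex and genome, with filled points for the 3 control libraries and open points for the 3 IRF9-overexpressing libraries. The mitochondrial genes lie between 396 and 8741 FPKM in controls, and the highest nuclear gene, ATP5F1B, lies at 346.7 FPKM in controls and 352.8 FPKM in the overexpressing libraries.

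Of the 99 genes, 93 had enough counts to be tested. With edgeR's quasi-likelihood test and Benjamini-Hochberg adjustment over all 19034 genes tested, 8 of the 93 rose, 19 fell and 66 did not pass an adjusted p of 0.05. That is 29.03% changed, against 37.4% of all genes tested (19.2% higher and 18.2% lower) and 51.9% of the genes between 10 and 800 CPM, a range chosen after the values were seen. The median log2 fold change was -0.05, against 0.00 over all genes tested. The groups did not overlap for 9 genes that were higher and 21 that were lower, 30 of 93, against 48.6% of all genes (25% higher and 23.7% lower). The 2 genomes differed in their shares: 8 of the 13 mitochondrial genes changed (2 higher and 6 lower, 61.5%) and 19 of the 80 nuclear genes (6 higher and 13 lower, 23.75%). The test of that difference was not made, since genes of a genome are not replicates. In limma-trend on the deposited FPKM, 1 mitochondrial gene was higher and 2 lower, and 11 nuclear genes were higher and 8 lower. The difference in shares was therefore not kept there. No background share was counted for genes above 800 CPM, where most of the mitochondrial mRNAs lay. The direction of the calls changed with the scaling. Scaling by library size only gave 17 genes higher and 12 lower, 58.6% of the calls against 29.6%, while over all genes 64.5% of calls were higher against 51.2%. It moved the median of all genes by 0.07, so that the median of the respiratory chain genes was 0.01. By complex it gave, among nuclear genes, 5 higher and 3 lower for complex I, 1 and 1 for complex II, 4 and 0 for complexes III and IV each, and 0 and 4 for complex V, and among mitochondrial genes 3 higher and 4 lower. The count of 19 lower genes was 38 without the first overexpressing library, 12 without the first control library and 29 with the replicate number as a block.

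The mitochondrial mRNAs did not move as one. Their summed level was 53149, 48846 and 53232 CPM in the overexpressing libraries and 58555, 56319 and 53499.9 CPM in the controls, a ratio of 0.922. The groups did not overlap but almost met, and the share of all counts, 5.42%, 5.03% and 5.43% against 5.70%, 5.49% and 5.25%, overlapped. By complex, the summed mitochondrial mRNAs were 1.07 times the control level for complex I, 0.725 for complex III, 0.855 for complex IV and 0.846 for complex V. The sums of complexes III, IV and V did not overlap between groups and that of complex I did.

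MT-CYB, the cytochrome b of complex III (chrMT:14747-15887, plus strand), had 3224, 2911 and 3307 CPM in the overexpressing libraries and 4493, 4370 and 4162 CPM in the controls. All 3 overexpressing libraries lay below every control. It fell by 0.46 on the log2 scale (SE 0.04, edgeR's quasi-likelihood test, adjusted p 6.93e-06), the largest decrease among mitochondrial mRNAs. MT-CO3, a core subunit of complex IV (chrMT:9207-9990), had 4543, 4007 and 4156 CPM against 5938, 5668 and 5359 CPM. The groups stood apart here too, with a log2 fold change of -0.42 (SE 0.05, adjusted p 2.33e-05 in edgeR's test). MT-CO1, the catalytic subunit of complex IV, had 10718, 10142 and 10710 CPM against 12018, 11705 and 11440 CPM (log2 fold change -0.16, SE 0.03). MT-CO2, which accepts electrons from cytochrome c, had 6779, 5707 and 6242 CPM against 7653, 7202 and 6697 CPM (-0.20, SE 0.06). Here the first overexpressing library lay above the third control, so the groups overlapped, and the call was lost without the second overexpressing library and without the first or the second control. 

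The 2 ATP synthase mRNAs of the mitochondrial genome also fell. MT-ATP6, a membrane subunit beside the rotor, had 4643, 4184 and 4692 CPM against 5555, 5457 and 5101 CPM (log2 fold change -0.25, SE 0.04), with no overlap. MT-ATP8 had 1552, 1446 and 1640 CPM against 1953, 1785 and 1615 CPM (-0.21, SE 0.06), with 1 overexpressing library above 1 control, and the call was lost without the second overexpressing library and without the first or the second control. The reading frames of these 2 genes overlap by 46 bases, so that reads there belong to both, and MT-ATP6 also overlaps MT-CO3. The shared stretch is shown because it limits the separate counts, with the start codon of MT-ATP6 and the stop codon of MT-ATP8 in capitals (GENCODE 29 transcripts).
MT-ATP8 and MT-ATP6 overlap, chrMT:8527-8572, plus strand: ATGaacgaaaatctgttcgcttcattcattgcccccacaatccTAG
Summing the counts of overlapping annotations gave -0.32 for MT-ATP6 (with MT-ATP8 and MT-CO3) and -0.24 for MT-ATP8 (with MT-ATP6). Each gene added had itself fallen, so these sums cannot test the separate calls. All counts of MT-CO3 were added, although it shares only base 9207 with MT-ATP6. Nuclear copies of mitochondrial sequence held 12.96% as many CPM as MT-ATP6 in controls and 5.09% as many as MT-ND2, and at most 0.212% as many for any of the other 11 genes, so those levels depend on how reads were shared.

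The 7 mitochondrial mRNAs of complex I held 2 that rose and 0 that fell (28.6% changed, against 37.4% of all genes tested). MT-ND1 (chrMT:3307-4262), a membrane subunit near the quinone site, had 1486, 1365 and 1502 CPM against 1293, 1188 and 1146 CPM. Every overexpressing library was above every control, with a log2 fold change of 0.26 (SE 0.05, adjusted p 0.000898 in edgeR's quasi-likelihood test). MT-ND4 (chrMT:10760-12137), a proton-pumping subunit and the mRNA with most counts in the overexpressing libraries, had 12979, 11978 and 13302 CPM against 11821, 11511 and 10865 CPM (0.16, SE 0.04, adjusted p 0.00716). The groups did not overlap, by a narrow margin. The other 5 did not pass and their groups overlapped: MT-ND2 at -0.10, MT-ND3 at 0.10, MT-ND4L at 0.08, MT-ND5 at -0.06 and MT-ND6 at 0.00 on the log2 scale. In limma-trend on the deposited FPKM, MT-ND4, MT-CO1, MT-CO2, MT-ATP6 and MT-ATP8 kept their direction but did not pass.

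**Figure D2:**
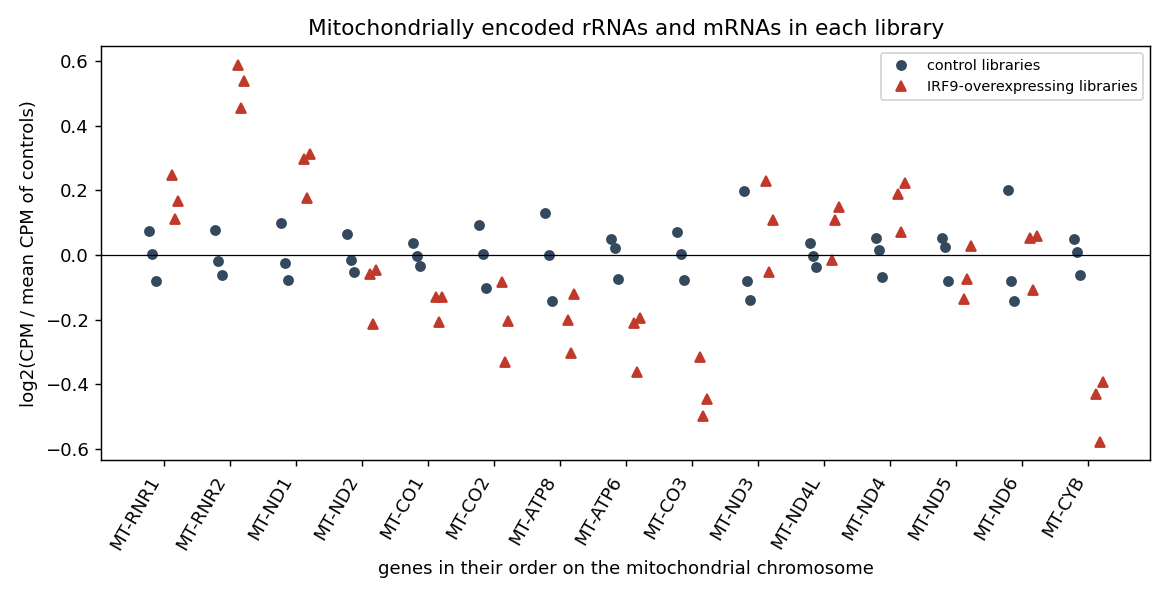
Level of each mitochondrial rRNA and mRNA in each library as log2 of CPM over the control mean, in order along the mitochondrial chromosome, circles for the 3 control and triangles for the 3 IRF9-overexpressing libraries. MT-RNR2, MT-ND1 and MT-ND4 lie above the controls, and MT-CYB and MT-CO3 lie furthest below.

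Ratios between mitochondrial RNAs within a library do not depend on the scaling of libraries. In all, 5 count ratios were chosen after the values were seen, 4 of them between mitochondrial RNAs and 1 between complex II genes. MT-CYB over MT-ND4 was 0.248, 0.243 and 0.249 with IRF9 overexpressed, against 0.380, 0.380 and 0.383 in the controls. MT-CO3 over MT-ND4 was 0.350, 0.335 and 0.312 against 0.502, 0.492 and 0.493. MT-CO3 over MT-CO1 was 0.424, 0.395 and 0.388 against 0.494, 0.484 and 0.468. None of these overlapped between groups. MT-RNR2, the large ribosomal RNA encoded next to MT-ND1, had 7601, 6936 and 7347 CPM against 5335, 4996 and 4839 CPM (log2 fold change 0.53, SE 0.04, adjusted p 9.17e-07 in edgeR's quasi-likelihood test). MT-RNR2 over MT-CYB was 2.36, 2.38 and 2.22 against 1.19, 1.14 and 1.16. MT-RNR1, the small ribosomal RNA, rose by a log2 fold change of 0.18 (SE 0.05). The summed mitochondrial tRNAs, 22 genes, were at 181.5 CPM against 183.2 CPM. Each ratio gave an exact two-sided permutation p of 0.1, the smallest that 3 against 3 allows. How the kit selected RNA, which bears on ribosomal RNA, is not stated in the labels.

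Nuclear genes of complex I were mostly close to the control level. Of 38 tested, 2 rose, 6 fell and 30 did not pass. Their median log2 fold change was -0.05 and their summed level was 0.974 times that of the controls, a log2 ratio of -0.04 that turned to 0.030 with scaling by library size only and to 0.013 on FPKM. The share lower was 15.8%, against 18.2% of all genes and 26.5% of those between 10 and 800 CPM. Of the NDUFB genes, which encode accessory subunits of the membrane arm, 3 of 11 fell (27.3%) and 1 rose. Among NDUFA genes 13 of 14 did not pass, and among NDUFS and NDUFV genes 9 of 11. The difference between these subunit groups was not tested. NDUFB3 (chr2:201071433-201085750) had 22.2, 22.2 and 21.4 CPM against 30.1, 28.5 and 28.1 CPM. Its groups were well apart, with a log2 fold change of -0.40 (SE 0.06, adjusted p 0.000269 in edgeR's quasi-likelihood test). NDUFB11, an accessory subunit on the X chromosome, had 46.0, 43.2 and 45.1 CPM against 53.6, 56.4 and 55.7 CPM (-0.30, SE 0.05). NDUFB9 went the other way, with 89.7, 87.7 and 83.1 CPM against 75.9, 74.0 and 67.4 CPM (0.26, SE 0.05), and every overexpressing library was above every control. It overlaps TATDN1 and MTSS1 on the opposite strand, which also rose, by 0.33 and 0.20.

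NDUFB2 (chr7:140690777-140722790) gave the largest decrease of any respiratory chain gene, with 28.1, 26.6 and 24.3 CPM against 43.0, 38.2 and 39.3 CPM. The groups were well apart, at a log2 fold change of -0.61 (SE 0.07, adjusted p 2.86e-05 in edgeR's quasi-likelihood test). It overlaps ADCK2 on the same strand, and ADCK2 rose from 26.7 to 33.6 CPM (0.33). The summed counts of the pair fell by 0.16 on the log2 scale (adjusted p 0.0403 in edgeR's test), so the size of the NDUFB2 value depends on how reads were assigned between them. NDUFC2, a membrane arm subunit, had 100.1, 85.6 and 84.2 CPM against 108, 103 and 105 CPM (-0.22, SE 0.06), and its call was lost without the second or the third overexpressing library or the first control. The other 3 calls had larger p-values in edgeR's test than the called nuclear complex I genes described so far. They are given because they passed: NDUFV1, the NADH-binding subunit, at 0.13, and NDUFA2 at -0.25 and NDUFV3 at -0.19. NDUFA2 lost its call without the third overexpressing library or the first control, NDUFV1 without the first overexpressing library or any one control, and NDUFV3 without the second overexpressing library or the first or the third control. NDUFV2, an iron-sulfur subunit and the highest nuclear complex I gene, had 151, 146 and 141 CPM against 144, 133 and 135 CPM and did not pass (0.09). NDUFA4, named as a complex I gene and now placed with complex IV, was at 0.01, and its low paralogue NDUFA4L2 had 0.864 to 1.32 CPM against 0.529 to 1.18 CPM and did not pass.

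**Figure D3:**
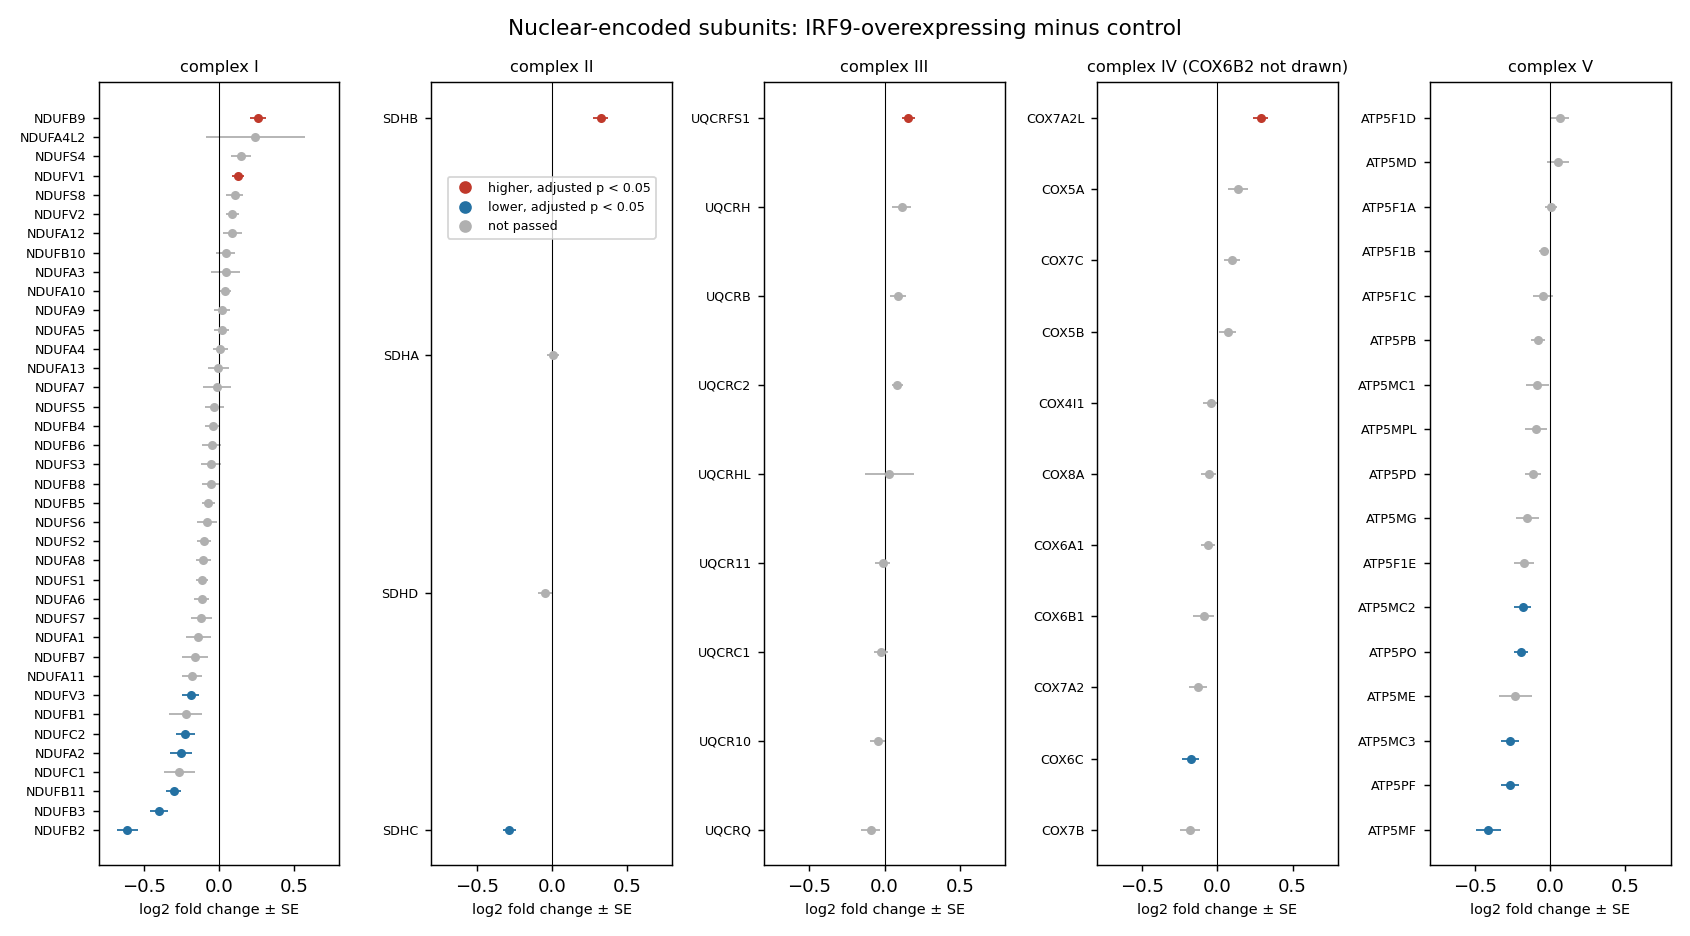
Log2 fold change (IRF9-overexpressing minus control, n = 3 each) with SE for every tested nuclear gene, by complex and sorted within it; red rose, blue fell and grey did not pass an adjusted p of 0.05. COX6B2, at 2.27, is not drawn. In complex V no point is red and 14 of 17 lie below 0.

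The 4 genes of complex II, succinate dehydrogenase, split. SDHB, the iron-sulfur subunit (chr1:17018722-17054032, minus strand), had 122, 112 and 108 CPM in the overexpressing libraries and 94.3, 88.3 and 90.0 CPM in the controls. Every overexpressing library was above every control, and the log2 fold change was 0.32 (SE 0.05, adjusted p 0.000384 in edgeR's quasi-likelihood test). SDHC, a membrane anchor that holds heme with SDHD (chr1:161314381-161371964), had 83.5, 83.5 and 82.0 CPM against 104, 97.6 and 101 CPM. It fell by 0.28 on the log2 scale (SE 0.04, adjusted p 0.000229 in the same test), again with no overlap. The count ratio of SDHB to SDHC in the same library was 1.46, 1.34 and 1.31 against 0.909, 0.905 and 0.891. SDHA, the flavoprotein subunit, had 145, 139 and 142 CPM against 146, 141 and 137 CPM (0.01), and SDHD had 60.9, 56.0 and 55.0 against 60.5, 58.5 and 58.1 CPM (-0.04). Neither passed, and the groups overlapped. Pseudogene copies of SDHA held 25.1% as many CPM as SDHA itself, so its level is uncertain. The summed complex II level was 1.01 times that of the controls.

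Among the 9 nuclear genes of complex III, 1 rose, 0 fell and 8 did not pass (11.1% changed, against 37.4% of all genes tested). CYC1, a nuclear complex III subunit outside the naming rule, also rose (log2 fold change 0.18, adjusted p 0.0051 in edgeR's quasi-likelihood test). UQCRFS1, the Rieske iron-sulfur subunit (chr19:29205320-29213151, minus strand), had 76.8, 72.9 and 73.5 CPM against 67.97, 65.1 and 66.95 CPM. The groups did not overlap (log2 fold change 0.16, SE 0.04, adjusted p 0.0149 in edgeR's quasi-likelihood test), and the call was lost without the second control. UQCRH, the hinge protein, had 127, 107 and 117 against 115, 102 and 108 CPM and did not pass, and its intronless relative UQCRHL had 2.79 to 3.36 CPM against 2.87 to 3.32 CPM and did not pass. The summed nuclear complex III level was 1.03 times that of the controls, against 0.725 for its mitochondrial partner MT-CYB.

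Complex IV had 17 nuclear genes, of which 12 were tested, 2 rose and 1 fell. That is 25% changed, against 37.4% of all genes tested. COX7A2L, a COX7A relative known for a role in supercomplexes of complexes III and IV (chr2:42333546-42425088, minus strand), had 97.3, 88.9 and 93.5 CPM against 77.6, 73.6 and 78.1 CPM. The overexpressing libraries were all higher, at a log2 fold change of 0.29 (SE 0.05, adjusted p 0.000512 in edgeR's quasi-likelihood test). COX6B2, an isoform of COX6B1 first known from testis (chr19:55349306-55354719, minus strand), had 1.98, 2.73 and 1.83 CPM against 0.585, 0.316 and 0.430 CPM. The groups were apart, and its log2 fold change of 2.27 (SE 0.33, adjusted p 0.00017 in edgeR's test) was the largest of any respiratory chain gene from one of the lowest levels. Its ubiquitous paralogue COX6B1 had 72.2, 60.3 and 66.4 CPM against 75.5, 69.9 and 66.6 CPM and did not pass. COX6C had 82.6, 75.6 and 72.7 CPM against 92.3, 86.0 and 82.8 CPM (-0.18, SE 0.06), a call lost without control 1 or 2, without overexpressing library 2 or 3, and with scaling by library size only. The isoforms of other tissues were absent or nearly so: COX4I2, COX6A2, COX7B2 and COX8C had 0 counts in all 6 libraries, which allows a level of up to 0.0345 to 0.0496 CPM per library, and COX7A1 had 3 counts in 1 library and 0 in the others. Their paralogues COX4I1 (-0.04), COX6A1 (-0.06), COX7A2 (-0.13), COX7B (-0.18) and COX8A (-0.06) did not pass.

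**Figure D4:**
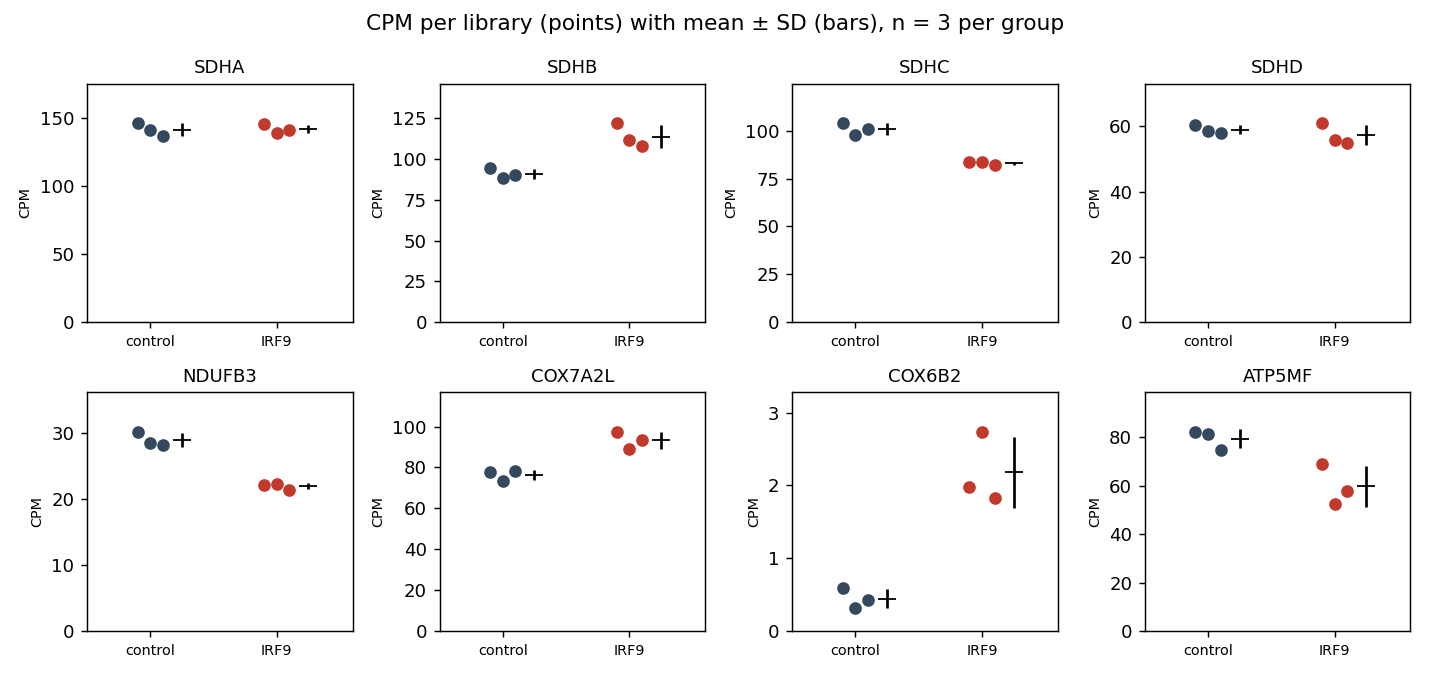
CPM in each of the 3 control and 3 IRF9-overexpressing libraries (points) with mean ± SD (bars) for the 4 complex II genes and 4 other genes, each axis starting at 0. SDHB and COX7A2L are higher and SDHC, NDUFB3 and ATP5MF lower in all overexpressing libraries, while SDHA and SDHD overlap.

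No nuclear gene of complex V rose: of 17 tested, 5 fell (29.4%, against 18.2% of all genes and 26.5% of those between 10 and 800 CPM) and 12 did not pass, and 14 lay below 0, with a median log2 fold change of -0.11. The summed level was 2280, 2055 and 2082 CPM against 2345, 2287 and 2217 CPM, a ratio of 0.937 with overlapping groups. The 5 genes that encode the catalytic head and the central stalk, ATP5F1A to ATP5F1E, did not pass. ATP5F1B had 730, 688 and 688 CPM against 725, 726 and 717 CPM (-0.04). ATP5MGL, the complex V gene that was not tested, had 3 counts in 1 control library and 0 in the others. ATP5F1E, the epsilon subunit and the lowest per length, was at -0.17. The calls lay among the membrane and peripheral stalk genes, 3 of 8 tested ATP5M genes (37.5%) and 2 of 4 ATP5P genes (50%). The difference between these subunit groups was not tested, and ATP5F1E at -0.17 lay close to ATP5MC2, called at -0.18. ATP5MF, the f subunit of the membrane part (chr7:99448475-99466186, minus strand), had 68.8, 52.5 and 57.8 CPM against 82.2, 81.5 and 74.9 CPM. All overexpressing libraries were below the controls (log2 fold change -0.41, SE 0.08, adjusted p 0.00173 in edgeR's quasi-likelihood test). With the overlapping PTCD1 and readthrough gene summed, the value was -0.31. ATP5MC3, 1 of 3 genes for the rotor c subunit, had 165, 146 and 151 against 195, 192 and 168 CPM (-0.26, SE 0.06). Its call was lost on the deposited FPKM, where the log2 fold change was -0.08. ATP5MC2 had 64.5, 55.7 and 61.7 against 71.3, 67.5 and 67.98 CPM (-0.18, SE 0.06), a call lost when any of 5 single libraries was left out, while the remaining one, ATP5MC1, was at -0.08 and did not pass.

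The 2 ATP5P genes that fell lie on chromosome 21, as does NDUFV3, and these 3 are the only respiratory chain genes there. ATP5PF, coupling factor 6 of the peripheral stalk, had 54.2, 49.1 and 47.9 CPM against 64.8, 57.9 and 59.0 CPM (log2 fold change -0.27, SE 0.06). ATP5PO, the OSCP subunit that joins stalk and head, had 96.6, 93.5 and 89.4 CPM against 110.1, 108 and 101 CPM (-0.19, SE 0.05), and did not pass on FPKM (-0.12). NDUFV3 had 26.9, 26.5 and 27.0 CPM against 31.3, 29.5 and 30.7 CPM (-0.19, SE 0.06), and did not pass there either. None of the 3 had an overlap between groups. Over the 109 genes of chromosome 21 with a mean of at least 5 CPM, the median log2 fold change was -0.19 and 51.4% fell, while on the other nuclear chromosomes the median lay between -0.04 and 0.05. The values of the 3 genes are therefore close to those of their chromosome, and the part of the chromosome in them was not tested. ATP5PF overlaps GABPA on the opposite strand, and GABPA, the DNA-binding subunit of the ETS factor GABP, fell by 0.20 on the log2 scale (adjusted p 0.0204 in edgeR's quasi-likelihood test). LINC00649, on the strand opposite ATP5PO, fell by 1.02. The sources used here do not give strand use in counting, so genes with an opposite-strand neighbour, 37 of the 99, are less certain. So are the 33 nuclear genes that overlap another gene on the same strand, and MT-ATP6, MT-ATP8, MT-CO3, MT-ND4 and MT-ND4L.

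**Figure D5:**
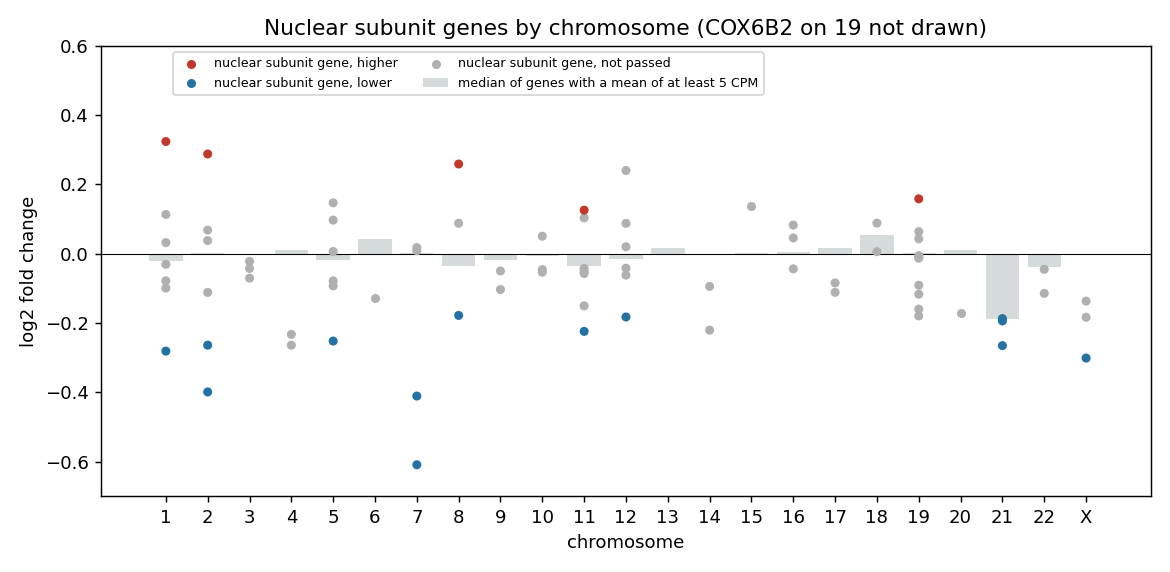
Log2 fold change of each tested nuclear gene by chromosome (points, coloured by call) over the median of all genes there with a mean of at least 5 CPM (bars). The chromosome 21 bar, at -0.19, is the lowest, and its 3 points are all blue. COX6B2, on chromosome 19, is not drawn.

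The other genes of the pathway were counted in lists of assembly factors, mitochondrial gene expression, regulators and fuel supply. Of 145 distinct genes tested, 37 rose (25.5%), 30 fell (20.7%) and 78 did not pass, and the median log2 fold change was 0.04. These shares stand beside 19.2% higher and 18.2% lower for all genes, and 25.4% and 26.5% for genes between 10 and 800 CPM. With library size scaling alone, 51 were higher and 13 lower. Of 18 complex I assembly factors 3 rose and 1 fell, 22.2% changed against 37.4% of all genes. Of 4 complex II assembly factors 2 rose and 0 fell (50% changed). Of 9 genes of complex III assembly and cytochrome c 4 rose and 1 fell (55.6%). NDUFAF2 rose from 18.6 ± 1.15 to 26.6 ± 3.03 CPM (SD, n = 3 per group; log2 fold change 0.52), and NDUFAF4 and TMEM186 by 0.39 and 0.40. SDHAF4 and SDHAF3, which help mature SDHA and SDHB, rose by 0.64 and 0.45. The complex III assembly factors TTC19 and UQCC2 rose by 0.39 and 0.31, and CYC1, the cytochrome c1 subunit of complex III itself, by 0.18. For complex IV 4 rose and 6 fell of 26, 38.5% changed, close to the 37.4% of all genes. The copper-handling factors COX19 and SCO1 were at 0.36 and 0.21 and the assembly factor SURF1 at -0.34. The copper chaperone SCO2 and the assembly factor COX20, named after their values were seen, fell further, by 0.66 and 0.56. The groups of SCO2 overlapped, with 17.7 CPM in the third overexpressing library against 17.2 CPM in the third control. For complex V 0 rose and 2 fell of 6 (33.3%), DMAC2L at -0.36 and ATPAF2, which assembles the catalytic head, at -0.28.

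Genes that transcribe and copy mitochondrial DNA gave 7 that rose and 2 that fell of 16, 56.25% changed. This stands beside 37.4% of all genes tested and 51.9% of those between 10 and 800 CPM. The ribosomal RNA methyltransferase TFB1M rose from 18.2 ± 0.847 to 27.2 ± 2.09 CPM (log2 fold change 0.58), the mitochondrial RNA polymerase POLRMT from 52.4 ± 1.48 to 65.6 ± 4.84 CPM (0.32) and the single-strand DNA-binding protein SSBP1 from 69.0 ± 3.99 to 85.0 ± 5.37 CPM (0.30). Factors of mitochondrial RNA processing were mixed, 5 higher and 4 lower of 22, 40.9% changed, close to the share of all genes. TBRG4 was at 0.22, the helicase SUPV3L1 at 0.23 and the RNase P subunit HSD17B10 at -0.31. Transcription factors of respiratory genes gave 2 higher and 7 lower of 15, 60% changed. PPARGC1A, the coactivator PGC-1 alpha, fell from 18.3 ± 0.800 to 12.9 ± 1.24 CPM (-0.51) and SP1 from 173 ± 4.65 to 136 ± 7.16 CPM (-0.35), while the nuclear receptor ESRRA rose by 0.19.

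The tricarboxylic acid cycle and pyruvate dehydrogenase genes held 6 that rose and 3 that fell of 17, 52.9% changed. All genes tested gave 37.4%, and those between 10 and 800 CPM 51.9%. Citrate synthase CS was at 0.15, PDHA1 at 0.15 and SUCLG2 at 0.27. Among regulators linked to oxygen supply, 4 were higher and 4 lower of 13, 61.5% changed. BNIP3, a mitophagy receptor and hypoxia target, fell from 239 ± 9.32 to 96.6 ± 4.13 CPM (log2 fold change -1.31, adjusted p 6.94e-10 in edgeR's quasi-likelihood test). PDK1, the kinase that switches off pyruvate dehydrogenase, fell from 99.6 ± 5.55 to 56.8 ± 3.95 CPM (-0.81), and BNIP3L from 121 ± 1.63 to 83.4 ± 1.90 CPM (-0.53). Of those that rose, named after their values were seen, C15orf48 was at 0.98, CHCHD10 at 0.50, ISCU at 0.34 and LONP1 at 0.25. None of the respiratory chain genes that were called, apart from COX6B2 and NDUFB2, had a log2 fold change beyond 0.5 in either direction.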

How the data were processed

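Raw read counts for every gene were deposited by the authors, and the tests used these. A second table, of normalised values, was deposited with no unit in its header and was taken as FPKM from the values. Per the submitters' processing notes, CASAVA 1.8, Trimmomatic, FastQC, HISAT2, StringTie and edgeR were used with GRCh38. Their roles, the annotation release and strand use are not stated (not given in the sources used here). Libraries were made with an Illumina TruSeq kit, per the labels' protocols.

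Tests ran in edgeR 4.0.16 (R 4.3.3), with filterByExpr at a minimum count of 10 and total of 15, TMM scaling, and a quasi-likelihood fit of group over all 6 libraries. Benjamini-Hochberg adjustment ran over 19034 genes, and an adjusted p under 0.05 was called. Log2 fold changes are overexpressing minus control, with SE from the test statistic. FPKM served for levels between genes and, among the alternatives, for limma-trend tests and summed levels. The common biological coefficient of variation was 0.135, distances between libraries of a group were 8.75 to 22.2 times counting variance, and floors (3 counts) cover counting error only.

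Genes were named by rule: all mitochondrial and SDH genes, up to 5 changed nuclear genes with the smallest p per complex (at least 5 CPM), paralogue pairs, the extremes of level, and 3 changed genes per pathway list. The genes, lists and rule were chosen with earlier results of these data known, and the shorter forms of the NRF1 and interferon motifs were added after the longer ones had been counted. Replicate numbers are not stated to mark a shared culture, so the main model has no block. Over all genes tested, same-numbered libraries did not deviate together. Alternatives covered scaling, filters, DESeq2 1.42.0, limma 3.58.1, glmTreat, the block, summed overlapping genes and leaving out each library. One marker gene of the leukocyte list is not reported here.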

Additional observations from a re-analysis of the deposited data

How the results depend on the processing

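Over 18 settings, 1518 of 1674 values for the 93 tested genes kept their call. Another 70 gained a call, 86 lost it and 0 calls reversed. Values that did not pass could change sign. SDHA went from 0.01 to -0.04 with overlapping genes summed, and the median of the 93 from -0.05 to 0.01 with library size only. Of 27 called genes, 18 kept the call when each library was left out, 13 kept it in every setting except glmTreat (against a log2 fold change of 0.25), and 5 kept it in every setting: MT-CYB, MT-CO3, NDUFB2, NDUFB3 and COX6B2.

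GlmTreat, stricter by construction, called 2918 of all genes, 1 respiratory chain gene higher and 4 lower (0 and 2 mitochondrial, 1 and 2 nuclear), 2, 0, 1, 2 and 0 changed in complexes I to V, and 6 higher and 7 lower among other pathway genes. Library size only gave 17 higher and 12 lower (nuclear 14 and 8), 5 changed in complex III and 13 other pathway genes lower. Limma-trend on log2(FPKM + 1) and on log2(FPKM + 0.1) gave the same counts: 10 lower, 1 mitochondrial gene higher and 2 lower, 11 nuclear genes higher and 8 lower, 4, 3 and 3 changed in complexes III, IV and V, and 12 other pathway genes lower. There 11 of the 27 calls were lost: MT-ND4, MT-CO1, MT-CO2, MT-ATP6, MT-ATP8, NDUFA2, NDUFC2, NDUFV3, COX6C, ATP5MC3 and ATP5PO. With no low-count filter, 16 other pathway genes were lower. The cause of these moves was not tested.

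Summed nuclear levels had log2 ratios of -0.04 in all, and -0.04, 0.01, 0.05, -0.01 and -0.09 for complexes I to V. Library size only gave 0.028 in all and 0.030, 0.082, 0.12, 0.053 and -0.027 for complexes I to V, turning the direction of the total and of complexes I and IV. Deposited FPKM gave 0.0080 in all and 0.013, 0.11, 0.12, 0.0078 and -0.048 for complexes I to V, turning the same 3 directions. The mitochondrial mRNA share differed by -0.187 percentage points, and by -0.842 on FPKM.

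Leaving out 1 library gave 12 to 38 lower respiratory chain genes, 8 to 31 lower nuclear genes, 8 to 19, 1 to 3 and 5 to 13 changed genes in complexes I, III and V, and 16 to 26 lower other pathway genes. Over all genes tested, same-numbered libraries did not deviate together (correlations of deviations 0.0073, 0.00198 and -0.0169). The summed nuclear respiratory chain genes, however, were highest in the first library of each group. They had 7250, 6639 and 6645 CPM in the overexpressing libraries and 7260, 6963 and 6879 CPM in the controls. A pairing of these genes by replicate number was not tested. With the replicate block 29 respiratory chain genes and 22 nuclear genes were lower. Depth limits only the lowest genes, such as COX6B2 and NDUFA4L2.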
